A study of Homo sapiens with 34 samples.

Results

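The comparison was of NKX2-5 shRNA knockdown cells with WT cells at day 2 of differentiation, the mesendoderm stage, in H1 human embryonic stem cells (ESCs). It held 4 of the 34 RNA-seq libraries of the study, 2 for each group, chosen by their labels. The study differentiated H1 ESCs along the cardiac lineage and depleted NKX2-5, ZEB2 or ZNF503 with shRNA, to learn what each gene is required for at days 0, 2, 6 and 10. All cells were infected with lentivirus and selected with puromycin, and all were treated with the GSK3β inhibitor CHIR99021 on the first day, before the WNT inhibitor IWP2. The NKX2-5 shRNA cells were 1 line, picked from the shRNA vectors tested as the line with the lowest NKX2-5 by real-time PCR. WT cells carried an shRNA to GFP or an empty vector, and the labels do not say which of these each WT library came from. The series describes the libraries as biological replicates but does not tie them to separate cultures, so the p-values cover the spread between these libraries. In bulk RNA, fewer cells of a type and less RNA per cell cannot be told apart.

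NKX2-5 is a homeobox transcription factor of the heart field, where it acts with GATA4 and TBX5 in cardiac progenitors. Mesendoderm is the bipotent stage that forms in the primitive streak under WNT, NODAL and BMP signals. High NODAL activity favors definitive endoderm, while WNT and BMP signals with the transcription factor MESP1 lead toward cardiovascular mesoderm.

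The 2 NKX2-5 shRNA libraries held 58178793 and 23957520 counts assigned to gene symbols, and the WT libraries held 28272228 and 14630405. A count of 3 in a library corresponded to 0.0516 to 0.205 CPM (counts scaled to 1000000 per library). Lower levels could not be told from 0. This limit was computed without the TMM factors by which the CPM of genes were scaled. NKX2-5 itself was at that limit at day 2, with 6 and 0 counts in the shRNA libraries and 6 and 4 counts in the WT libraries. These counts were too low to be tested, and the knockdown could not be measured at this stage. At day 0 the counts were also low, at 5 and 8 in the shRNA libraries and 8 and 16 in WT. At day 6, when WT cells expressed the gene, the libraries of the same line held 27 and 38 NKX2-5 counts against 1942 and 2097 in WT.

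Both lines carried the mesendoderm program at day 2. The transcription factors TBXT (log2 fold change from day 0 of 7.36 in WT and 7.99 in knockdown cells), EOMES (7.94 and 9.90) and MIXL1 (5.61 and 7.21) rose over time in both lines by edgeR's quasi-likelihood test. The pluripotency factors NANOG (-2.05 and -1.97) and SOX2 (-2.24 and -2.05) fell in both. POU5F1 fell less (-0.79 and -0.48). Between the lines at day 2, TBXT was at 34.3 and 48.4 CPM in knockdown cells and at 54.6 and 57.2 CPM in WT, and its log2 fold change of -0.44 ± 0.16 (SE) had an adjusted p of 0.051. EOMES (adjusted p = 0.25), MIXL1 (adjusted p = 0.25), LHX1 (adjusted p = 0.58), NANOG (adjusted p = 0.96) and SOX2 (adjusted p = 0.77) also did not pass 5% FDR between the lines. The mesendoderm marker FGF17 (adjusted p = 0.099) did not pass either. GSC (adjusted p = 0.000233), CER1 (adjusted p = 1.00e-05) and POU5F1 (adjusted p = 0.0017) did pass, each higher in knockdown cells.

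Of 16521 genes tested, 197 (1.19%) were called at a fold change of at least 4 and 10% FDR. Among them 80 (0.484%) were higher and 117 (0.708%) were lower in NKX2-5 shRNA cells. At 5% FDR with no fold threshold, 4403 genes (26.7%) passed, 2155 higher (13.0%) and 2248 lower (13.6%). This second count fell to 2551 without NKX2-5 shRNA replicate 1, to 2930 without WT replicate 1 and to 2181 without WT replicate 2. When TMM factors were left out, the all-gene median moved from -0.003 to -0.13 and the split at 5% FDR became 1182 higher and 3408 lower. With 2 libraries in each group, 64.07% of all genes tested (10585) had no overlap between the groups, so that a gene without overlap was the usual case. Many of the called genes were low, and 34 of the 80 higher and 63 of the 117 lower had a mean under 1 CPM in both groups. The plot of fold change against level shows that the 4-fold calls lay mostly among low genes, while DKK4, CER1, KDR and COL5A1 changed by smaller folds at high levels.

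**Figure D1:**
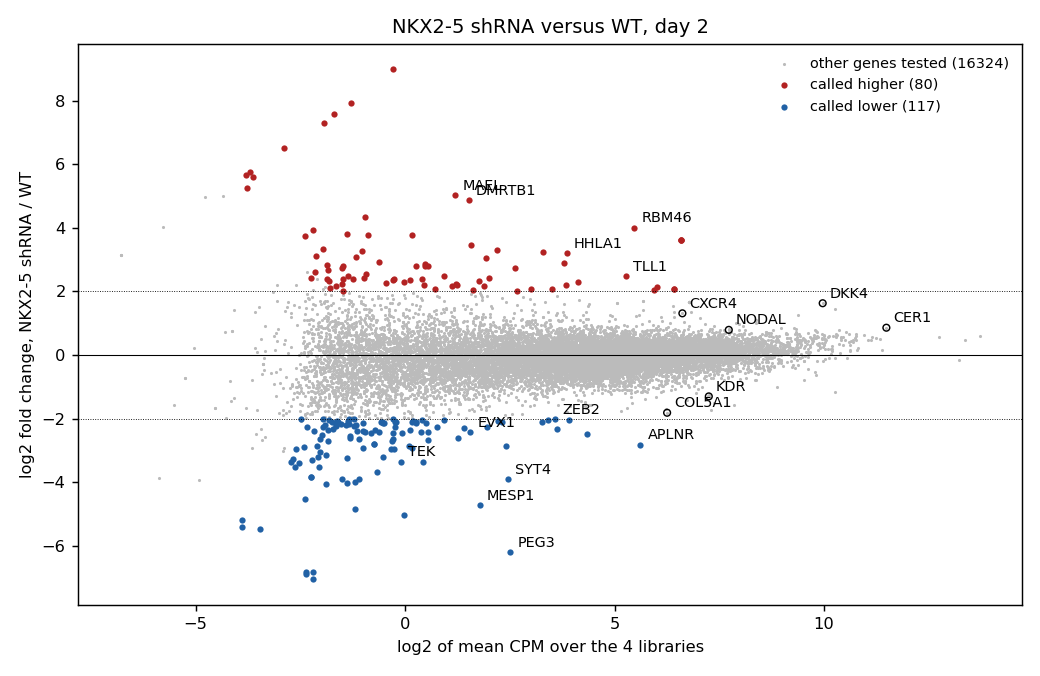
Log2 fold change of NKX2-5 shRNA over WT at day 2 (y axis) against the log2 of the mean CPM over the 4 libraries (x axis) for 16521 genes. Red and blue points are the 80 genes called higher and the 117 called lower, dotted lines mark 4-fold, and genes of the text are named. PEG3 and MESP1 had log2 fold changes of -6.20 and -4.73, and RBM46 had one of 4.0.

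Several genes of early mesoderm were lower in NKX2-5 shRNA cells. MESP1, a basic helix-loop-helix factor that marks the earliest cardiovascular mesoderm (chr15:90293106-90294480, GRCh37), was at 0.237 and 0.264 CPM in the NKX2-5 shRNA libraries and at 6.40 and 6.82 CPM in WT. Both knockdown libraries were far below both WT libraries, and the log2 fold change was -4.73 ± 0.34 (SE, adjusted p = 1.23e-06). At day 0 the gene had been at 0.441 and 0.497 CPM in knockdown cells and at 0.413 and 0.407 CPM in WT. MESP2, the neighboring paralog (chr15:90303822-90321985), was at 0.566 and 0.264 CPM in knockdown cells and 2.40 and 2.58 CPM in WT (log2 fold change of -2.44 ± 0.40, adjusted p = 0.000642). The pair is similar in sequence, and since 1 best hit was kept for each read, a read that fits both genes equally may have been counted for either.

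APLNR, the apelin receptor of migrating mesoderm, was lower as well. It was at 10.9 and 13.7 CPM in knockdown cells and at 78.9 and 92.8 CPM in WT, with no overlap (log2 fold change of -2.82 ± 0.19, adjusted p = 9.18e-07). KDR, the VEGF receptor found on cardiovascular progenitors, was at 93.5 and 81.9 CPM against 221 and 212 CPM in WT (log2 fold change of -1.30 ± 0.09, adjusted p = 5.82e-07). The homeobox gene EVX1 of the posterior streak (log2 fold change -2.43) and the paraxial mesoderm factor TBX6 (-1.29) were in this group. Among primitive streak and mesendoderm transcription factors, 6 of 16 tested were lower and 2 were higher at 5% FDR. This share of 50% compares with 26.7% of all genes. The median log2 fold change was -0.29 against -0.003 over all genes tested. Of the 6, all but ZIC2 passed with any 1 of the 4 libraries left out. In the list of cardiac mesoderm and progenitor genes, 5 of 24 were lower and 2 higher, with a median of -0.22, and this share of 29.2% is near the 26.7% of all genes. MESP1, APLNR and KDR held with any library left out, whereas GATA4 and MYL7 among the lower genes and HAND2 among the higher ones did not. PDGFRA, the PDGF receptor of paraxial and cardiac mesoderm, was higher, at 569 and 544 CPM against 415 and 431 CPM.

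The promoter of MESP2 is shown because it belongs to the group that was lower and was the only one of 77 promoters of called lower genes with a match to AATCCACA, the FOXH1 motif, in the 250 bases before the start (both strands searched). The share of matches was 0.334% among 12561 promoters of genes tested. The sequence is from RefSeq, GRCh38.p14, chr15:89776082-89776331, plus strand, with the match in capitals. A match describes these letters and no binding was measured.
MESP2: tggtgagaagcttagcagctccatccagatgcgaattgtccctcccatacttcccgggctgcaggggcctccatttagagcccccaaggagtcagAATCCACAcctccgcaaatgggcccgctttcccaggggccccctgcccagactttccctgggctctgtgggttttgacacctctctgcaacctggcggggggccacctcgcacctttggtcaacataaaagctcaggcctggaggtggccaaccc
Motifs spelled TCAAGTG or TTAAGTG, which NKX2-5 binds, were found in 1 of 51 promoters of genes called higher (DNAI7) and 1 of 77 of those called lower (AMH), against 2.78% of all genes tested. The TCF/LEF motifs CTTTGAT or CTTTGAA were found in 1 of the 51 (CORIN) and 0 of the 77, against 3.76%. Called genes with no promoter entry are not in these sets.

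NODAL and several of its feedback and target genes were higher in knockdown cells. NODAL, the TGFβ family ligand of the streak, was at 252 and 285 CPM in the NKX2-5 shRNA libraries and 154 and 156 CPM in WT (log2 fold change of 0.79 ± 0.10, adjusted p = 9.40e-05). LEFTY1, a secreted NODAL antagonist and target, was at 28.2 and 34.7 CPM against 10.1 and 10.7 CPM in WT (log2 fold change of 1.6 ± 0.15, adjusted p = 1.15e-05). CER1, an antagonist secreted by anterior endoderm, was at 3765 and 3640 CPM against 2015 and 2073 CPM (log2 fold change of 0.86 ± 0.08, adjusted p = 1.00e-05). None of these 3 genes overlapped between the groups, as was so for 64.07% of all genes. In the NODAL pathway list, 5 of 18 genes tested were higher (NODAL, LEFTY1, LEFTY2, CER1 and GDF3) and 3 were lower (FOXH1, FST and ACVR2B). The median was 0.05, and 44.4% passed 5% FDR against 26.7% of all genes. FOXH1, the DNA-binding partner of SMAD2, was at 33.4 and 45.9 CPM in knockdown cells and at 62.3 and 68.9 CPM in WT. LEFTY2 had an adjusted p of 0.0813 without WT replicate 1, and FST had one of 0.116 without the same library and 0.0787 without NKX2-5 shRNA replicate 2.

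Some genes of the anterior streak and endoderm were higher too. The organizer factor GSC was at 107 and 128 CPM against 72.3 and 67.1 CPM in WT (log2 fold change of 0.75 ± 0.11, adjusted p = 0.000233), and OTX2, a factor of the anterior streak and epiblast, was at 364 and 378 CPM against 266 and 267 CPM. CXCR4, the chemokine receptor used to identify definitive endoderm, was at 135 and 145 CPM against 52.7 and 60.4 CPM (log2 fold change of 1.31 ± 0.10, adjusted p = 1.81e-06). SHISA2, an inhibitor of WNT and FGF receptor maturation, was at 300 and 340 CPM against 159 and 158 CPM (log2 fold change 1.01). All 4 had both knockdown libraries above both WT libraries, against 64.07% of all genes without overlap in either direction. Of 15 definitive endoderm genes tested, 5 were higher and 0 were lower at 5% FDR, with a median of 0.03. This share of 33.3% compares with 26.7% of all genes past 5% FDR. Without TMM factors 3 were higher and 1 was lower with a median of -0.10, with any 1 library left out 3 were higher, and after correction for GC content and length the median was 0.19. SOX17, the defining factor of this lineage, was at 54.6 and 69.7 CPM in knockdown cells and at 57.0 and 62.6 CPM in WT, with overlap (adjusted p = 0.82). FOXA2 was at 75.6 and 83.1 CPM against 57.1 and 63.1 CPM (adjusted p = 0.0416), but did not pass 5% FDR when any library was left out (adjusted p from 0.0739 to 0.203). HHEX, the other of the 5 that failed this check, is a homeobox factor of anterior endoderm.

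**Figure D2:**
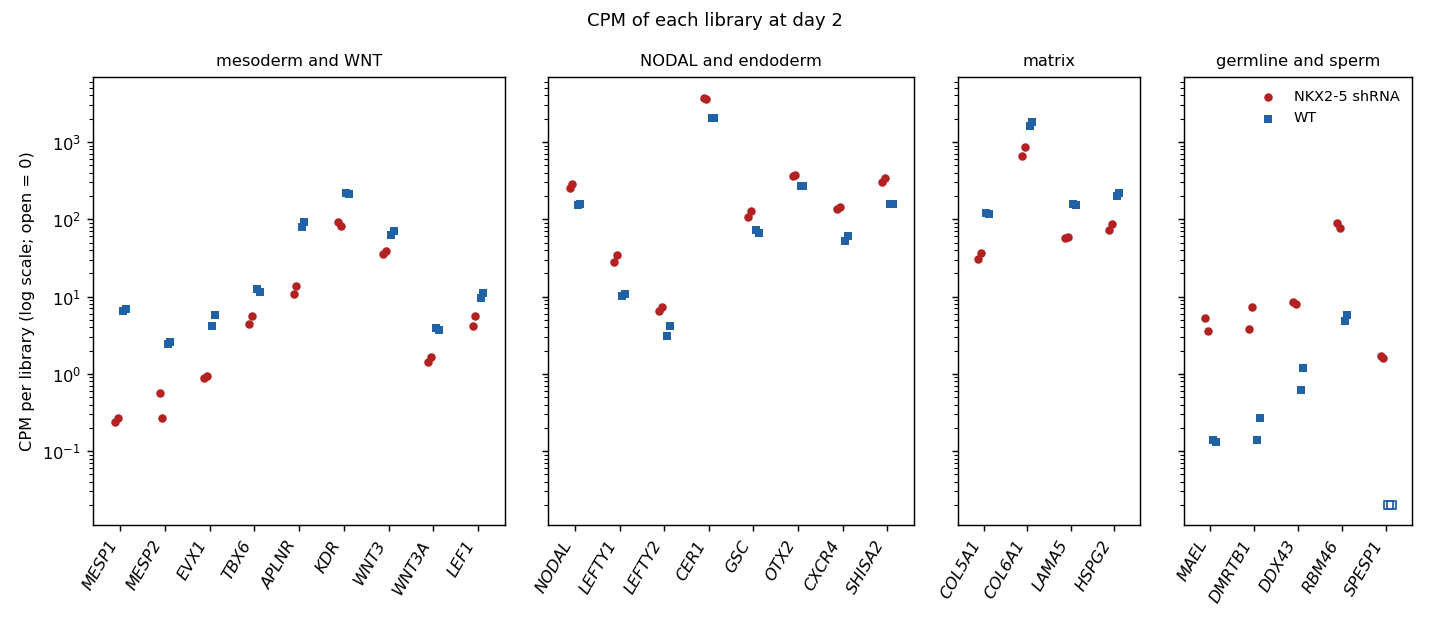
CPM of each library at day 2 (log axis) for genes of mesoderm and WNT, NODAL and endoderm, extracellular matrix, and germline or sperm. Red circles are the 2 NKX2-5 shRNA libraries, blue squares the 2 WT libraries, and open symbols at the base are values of 0. Knockdown was below WT for the mesoderm, WNT and matrix genes shown and above WT for the others. None overlapped, as was so for 64.07% of all genes tested. The genes were picked for display, so their shared direction is not a result. PDGFRA and DKK4 (higher), FOXH1, FST, ACVR2B and DAZL (lower) and SOX17 (overlapping) are not shown.

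Several WNT pathway genes were lower. Of 22 ligands, feedback genes and targets tested, 11 were lower and 1 was higher at 5% FDR, 54.5% against 26.7% of all genes. The median was -0.44 against -0.003 over all genes, and the median of the list at day 0 was -0.35. The list median at day 2 ranged from -0.65 to -0.37 with single libraries left out. WNT3, the ligand of the early streak, was at 35.2 and 39.2 CPM in knockdown cells and at 63.2 and 69.9 CPM in WT (log2 fold change of -0.84 ± 0.15). WNT3A (1.42 and 1.63 against 3.90 and 3.71 CPM) and WNT5A (25.1 and 26.6 against 53.5 and 58.2 CPM) were lower by 1.34 and 1.11 on the log2 scale. The nuclear effector LEF1 (-1.10) and the membrane-bound WNT inhibitor APCDD1 (-0.95) were also lower. These 5 genes passed with any library left out, and the 6 others (WNT8A, TCF7, NKD1, NKD2, ZNRF3 and SFRP2) lost 5% FDR in at least 1 of the 4 fits. DKK4, a WNT target that blocks the LRP co-receptors, went the other way, at 1476 and 1550 CPM against 485 and 495 CPM (log2 fold change of 1.63 ± 0.12, adjusted p = 1.23e-06).

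The BMP and FGF lists held genes of both directions. Among BMP genes, 5 of 15 were lower and 3 higher, a share of 53.3% against 26.7% of all genes. Without TMM factors 7 of them were lower and 2 higher. The target ID1 was at 28.5 and 32.1 CPM against 65.9 and 70.6 CPM in WT (log2 fold change of -1.17 ± 0.14), and CHRD, the antagonist chordin, was at 85.4 and 107 CPM against 39.7 and 44.2 CPM (1.20 ± 0.15). ID3 and ID4 were lower and ID2 was higher, so that members of this family of HLH inhibitors moved in both directions. Among FGF genes, 5 of 22 were lower and 2 higher, a share of 31.8% that is near the 26.7% of all genes. DUSP6, a feedback phosphatase, was 1 of the 2 higher and lost 5% FDR with any 1 of the 4 libraries left out (adjusted p from 0.0797 to 0.203). The receptor FGFR3 was at 21.3 and 25.1 CPM against 53.3 and 52.2 CPM. The ligand FGF2 was lower by 0.78 on the log2 scale, and FGF8 by 0.83, although FGF8 had an adjusted p of 0.533 without WT replicate 1, 0.204 without NKX2-5 shRNA replicate 1 and 0.0657 without NKX2-5 shRNA replicate 2. Among Notch genes, 8 of 16 were lower and 1 higher, 56.25% against 26.7% of all genes, with a median of -0.47. The Notch list median ranged from -0.47 to -0.35 with single libraries left out. The higher gene LFNG, a glycosyltransferase that modifies Notch, had an adjusted p of 0.197 without NKX2-5 shRNA replicate 2, 0.19 without WT replicate 1 and 0.0787 without WT replicate 2, and the list held 0 higher genes when TMM factors were left out. The receptors NOTCH1 (log2 fold change -1.15), NOTCH2 (-0.45) and NOTCH3 (-0.95) passed with any library left out, while the ligands DLL1, DLL3, JAG1 and JAG2 did not.

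Most genes of the extracellular matrix list were lower. Its members, like those of the other lists, were chosen with earlier results of these data known. Its share is therefore no independent support. Of 25 collagen and basement membrane genes tested, 16 were lower and 0 were higher at 5% FDR. This share of 64% compares with 26.7% of all genes. All 25 had a fitted log2 fold change below 0 (from -1.82 to -0.22), and the median was -0.68. COL5A1, a fibrillar collagen chain, was at 30.8 and 36.9 CPM in knockdown cells and at 122 and 116 CPM in WT (log2 fold change of -1.82 ± 0.13, adjusted p = 1.25e-06). The basement membrane chains LAMA5 (57.6 and 58.2 against 157 and 155 CPM) and HSPG2 (72.6 and 87.3 against 199 and 219 CPM) were lower by 1.43 and 1.39, and COL6A1 was at 655 and 865 CPM against 1606 and 1806 CPM. Each of these genes had both knockdown libraries below both WT libraries (64.07% of all genes had no overlap in either direction), and 12 of the 16 passed with any library left out. At day 0 the median of the list was -0.05.

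Fold changes across all genes also varied with sequence. With genes split into 5 equal bins of GC content, the median log2 fold change went from 0.13 in the lowest bin to -0.24 in the highest, and with 5 bins of transcript length it went from 0.19 in the shortest to -0.12 in the longest. The matrix genes tested had a median GC content of 53.1% and a median length of 6540 bases, against 48.1% and 3667 bases over all genes. After correction for GC content and length, 12 of the 25 matrix genes were lower and 0 higher at 5% FDR (median -0.40). Of the 22 WNT genes 9 were lower and 2 higher (median -0.35). Of the 16 Notch genes 5 were lower and 1 higher (median -0.27). Over all 16521 genes tested, 4055 passed 5% FDR under this correction, 2224 higher and 1831 lower.

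Genes of epithelial-mesenchymal transition were mixed. The transcription factors ZEB2 (4.98 and 4.32 against 19.3 and 19 CPM, log2 fold change of -2.03 ± 0.19, adjusted p = 9.39e-06) and SNAI2 (1.57 and 1.85 against 5.07 and 4.97 CPM) were lower, as was ITGA5, the fibronectin receptor chain (23.0 and 20.8 against 59.3 and 66.3 CPM). ZEB2 is also the target of another knockdown of the study. The epithelial genes CDH1 (-0.49) and CLDN4 (-1.39) were lower too. Among mesenchymal genes VIM (1.25) and FN1 (0.63) were higher, while CDH2 and MMP2 were lower at 5% FDR. In all, 7 of 20 were lower and 2 were higher at 5% FDR, 45% against 26.7% of all genes, with a median of -0.26. The median ranged from -0.43 to -0.07 with single libraries left out.

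**Figure D3:**
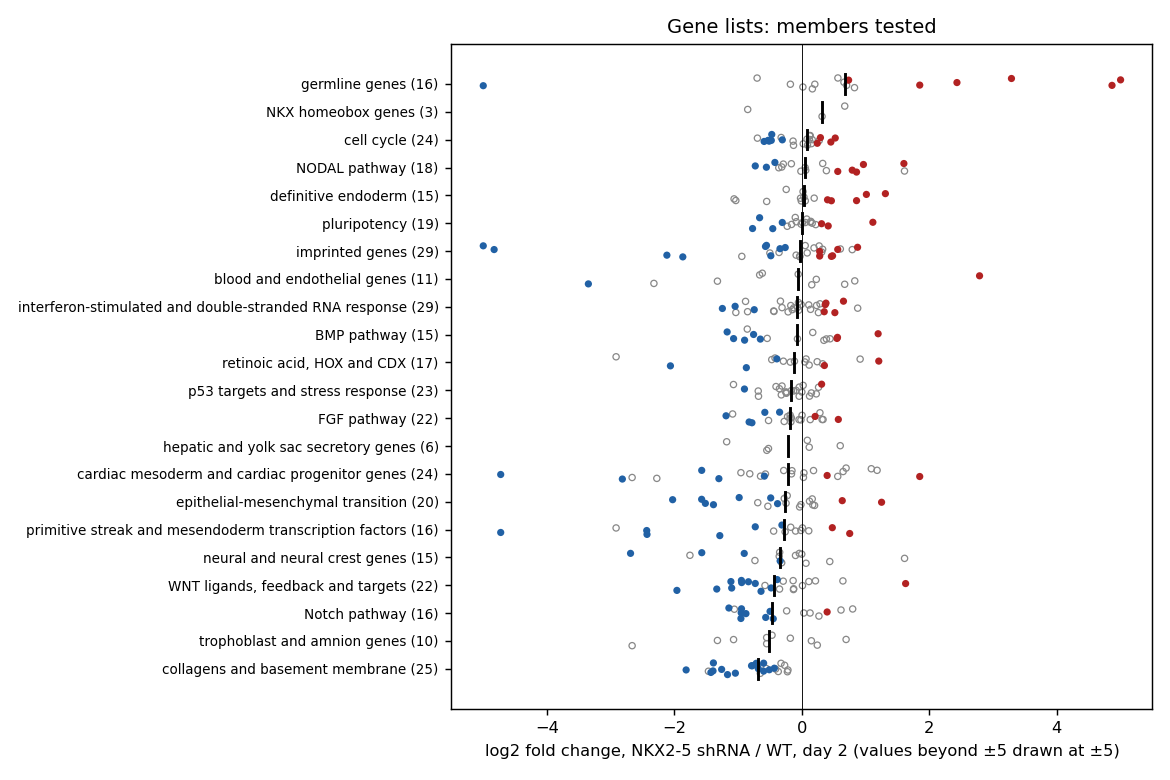
Log2 fold change of NKX2-5 shRNA over WT at day 2 for every tested member of 22 gene lists, ordered by list median (black bars), with the number tested in parentheses. Filled points passed 5% FDR (red higher, blue lower) and open points did not. The collagen and basement membrane list has the lowest median (-0.68) and the germline list the highest (0.68).

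Genes of the germline were among those furthest above WT. MAEL, a piRNA pathway protein of male germ cells, was at 5.29 and 3.61 CPM in knockdown cells and at 0.137 and 0.132 CPM in WT, where it had 4 and 2 counts (log2 fold change of 5.02 ± 0.53, adjusted p = 3.46e-05). DMRTB1, a DM domain factor of spermatogonia, was at 3.78 and 7.27 CPM against 0.137 and 0.265 CPM (4.87 ± 0.59, adjusted p = 6.99e-05). The helicase DDX43 was at 8.54 and 7.97 CPM against 0.616 and 1.19 CPM (3.29 ± 0.35). In each gene both knockdown libraries were above both WT libraries, where 64.07% of all genes had no overlap in either direction. Of 16 germline genes tested, 6 were higher (MAEL, DMRTB1, DDX43, MOV10L1, PRAME and PIWIL2) and 1 was lower at 5% FDR. The median was 0.68, and 43.75% passed against 26.7% of all genes. At day 0 the median of the list was 1.06. The lower gene was DAZL, a germ cell RNA-binding protein, with 0 counts in both knockdown libraries and 4 and 2 in WT. These WT counts lie near the limit of 3 counts, so no size of the difference is given. PIWIL2 lost 5% FDR when single libraries were left out, as did MOV10L1 (adjusted p = 0.0831 without NKX2-5 shRNA replicate 1, 0.0827 without WT replicate 1 and 0.076 without WT replicate 2), and DAZL lost it with any 1 of the 4 left out (adjusted p from 0.0805 to 0.227). Outside the list, RBM46, an RNA-binding protein of meiotic germ cells, was at 89.1 and 77.6 CPM against 4.83 and 5.69 CPM (log2 fold change of 4.0 ± 0.16, adjusted p = 5.73e-09). SPESP1, a sperm surface protein, had 93 and 36 counts in knockdown cells and 0 in both WT libraries, at least 10.9-fold higher.

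The promoters of MAEL and DMRTB1 are shown because both genes were near 0 in WT and well above it in knockdown cells, and differ in CG content, with each CG in capitals (RefSeq, GRCh38.p14, plus strand, the 250 bases before the start). The MAEL promoter, chr1:166975332-166975581, holds 51 CG, a number that 16 of 12561 promoters of genes tested reach. The DMRTB1 promoter, chr1:53459149-53459398, holds 7.
MAEL: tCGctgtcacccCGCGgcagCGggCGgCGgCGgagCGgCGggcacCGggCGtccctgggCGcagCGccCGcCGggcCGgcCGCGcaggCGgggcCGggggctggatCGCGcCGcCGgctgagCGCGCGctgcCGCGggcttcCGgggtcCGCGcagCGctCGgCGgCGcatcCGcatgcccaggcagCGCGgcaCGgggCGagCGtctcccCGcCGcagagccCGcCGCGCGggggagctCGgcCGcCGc
DMRTB1: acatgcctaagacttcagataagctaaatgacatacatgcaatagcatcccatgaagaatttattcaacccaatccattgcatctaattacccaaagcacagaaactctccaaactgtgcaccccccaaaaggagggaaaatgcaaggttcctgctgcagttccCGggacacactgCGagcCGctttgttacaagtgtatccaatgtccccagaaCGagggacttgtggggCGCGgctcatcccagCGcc
The median number of CG was 12 over 51 promoters of genes called higher, 13 over 77 promoters of genes called lower and 20 over all genes tested. DNA methylation was not measured.

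Other large changes involved genes of several kinds. Among the 15 largest rises of genes above 1 CPM were the zinc finger gene ZNF662 (18.6 and 16.8 against 2.19 and 1.39 CPM), the lysosomal protease CTSF (23.2 and 25.3 against 2.74 and 3.91 CPM) and the hormone gene SST (2.19 and 2.03 against 0.240 and 0 CPM). TLL1, a tolloid-like metalloprotease that can cleave chordin, was at 67 and 63.9 CPM against 11.2 and 12.2 CPM (log2 fold change of 2.49 ± 0.15, adjusted p = 3.08e-07), and did not differ past the test at day 0 (adjusted p = 0.744). HHLA1 (26.5 and 26 against 2.84 and 2.85 CPM) and its neighbor OC90 (5.56 and 5.42 against 0.479 and 0.530 CPM) rose together, and reads of adjacent transcripts could be shared. The entries SNAR-C1, SNAR-C2 and SNAR-C5, small RNA genes in near-identical copies, had the same counts in every library and cannot be told apart. HBE1, embryonic globin, was at 2.06 and 2.11 CPM against 0.240 and 0.397 CPM, and had an adjusted p of 0.133 without WT replicate 1, 0.0738 without NKX2-5 shRNA replicate 1 and 0.0584 without WT replicate 2. It was the only higher gene of 11 blood and endothelial genes tested, of which 18.2% passed 5% FDR against 26.7% of all genes. TEK, the angiopoietin receptor, was the only lower one, at 0.201 and 0.0881 CPM against 1.47 and 1.99 CPM (log2 fold change of -3.35 ± 0.49, adjusted p = 0.000268).

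Among the falls, the synaptic genes SYT4 (0.693 and 0.661 against 10.2 and 10.2 CPM, log2 fold change of -3.90 ± 0.26), LRRTM1 (0.109 and 0.440 against 1.88 and 2.91 CPM) and SLITRK6 (0.0365 and 0.0881 against 1.23 and 2.58 CPM) were called. SLFN13, a Schlafen family nuclease, was at 1.17 and 1.45 CPM against 9.07 and 9.40 CPM. CPT1B, the muscle form of the mitochondrial carnitine palmitoyltransferase, was lower at day 2 (7.01 and 5.02 against 31.3 and 37.5 CPM) and at day 0, by 2.48 and 2.43 on the log2 scale. PDGFRB was called lower as well (0.146 and 0.0881 against 0.753 and 1.79 CPM, adjusted p = 0.0581 without WT replicate 2). The lowest fitted value of genes above 1 CPM was that of PEG3, a paternally expressed zinc finger gene, with 12 and 0 counts in knockdown cells and 320 and 174 in WT (log2 fold change of -6.20 ± 0.48, adjusted p = 1.98e-06). ZIM2, which overlaps PEG3 on the same strand, had 2 and 0 counts against 17 and 17, a ratio of 29.7 (95% exact interval 7.62 to 255, counting error only). Of 29 imprinted genes tested, 9 were lower, including PLAGL1 and the overlapping HYMAI, and 6 were higher at 5% FDR. The median was -0.03, and 51.7% passed against 26.7% of all genes. HYMAI lost 5% FDR with a library left out, and of the 6 higher genes NNAT alone passed with any library left out. The higher count was 3 without NKX2-5 shRNA replicate 2, 3 without WT replicate 1, 2 without WT replicate 2 and 3 without TMM factors.

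Several lists held no gene past the test. At 5% FDR in edgeR's quasi-likelihood test, 0 of 10 trophoblast and amnion genes, 0 of 6 hepatic and yolk sac genes and 0 of 3 NKX homeobox genes tested passed, and at an unadjusted p under 0.05 there were 4, 0 and 1. The cardiomyocyte gene TNNT2, with 4 and 1 counts in knockdown cells and 8 and 6 in WT, was called lower at 10% FDR (adjusted p = 0.088) at this very low level. MYH6 (3 and 10 against 10 and 5 counts) and the progenitor marker TBX5 (32 and 16 against 6 and 6 counts) were also low and did not pass. Of 15 neural and neural crest genes 4 (26.7%, as over all genes) were lower, among them ZIC1 (10.7 and 11.1 against 30.5 and 34.2 CPM) and FABP7 (0.328 and 0.528 against 3.56 and 1.39 CPM). The other two, NES and DCX, lost 5% FDR with a library left out, so that 2 remained without WT replicate 1 or WT replicate 2, and the median of -0.34 became -0.04 after correction for GC content and length. Of 19 pluripotency genes 3 were higher and 4 lower, a share of 36.8% against 26.7% of all genes. Without TMM factors 2 of them were higher and 6 lower. POU5F1 was at 589 and 691 CPM against 480 and 482 CPM (log2 fold change 0.41), DPPA2 was higher by 1.11, and the methyltransferase DNMT3B was lower by 0.46. Of 17 retinoic acid, HOX and CDX genes 2 were higher and 3 lower, and of these 5 only STRA6, the receptor for retinol uptake, passed with any library left out. The share of that list past 5% FDR was 29.4%, near the 26.7% of all genes. For stress and growth, 5 of 29 interferon and double-stranded RNA response genes were higher and 3 lower. Without TMM factors the interferon split was 4 higher and 6 lower. Among 23 p53 targets 1 was higher and 1 lower, and among 24 cell cycle genes 4 were higher and 6 lower. The shares past 5% FDR were 27.6%, 8.7% and 41.7%, against 26.7% of all genes, and the medians were -0.07, -0.17 and 0.08. After correction for GC content and length the interferon median was 0.026 and the cell cycle median -0.099. Both p53 targets (RRM2B and PHLDA3) lost 5% FDR without NKX2-5 shRNA replicate 1 and without WT replicate 2, and without TMM factors the split was 0 higher and 5 lower. The cell cycle split was 2 higher and 3 lower without NKX2-5 shRNA replicate 1, and 2 higher and 4 lower without either WT library.

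The same line could be compared with WT at day 0, before differentiation, in 4 other libraries. Of the 80 genes called higher at day 2, 67 were tested at day 0 and 33 of these were also higher at 5% FDR, while 2 were lower. For higher genes the share of all genes past that threshold at day 0 was 8.23%. Of the 117 genes called lower, 91 were tested at day 0, of which 15 were also lower and 6 were higher, against 7.64% of all genes that were lower at day 0. The median log2 fold change of the higher genes was 2.70 at day 2 and 1.48 at day 0, and that of the lower genes was -2.46 and -0.39. DMRTB1 and RBM46 already differed at day 0, with DMRTB1 at 2.01 and 3.36 CPM in knockdown cells at day 0 against 0.103 and 0.0508 CPM in WT, and RBM46 at 95.4 and 101 CPM against 6.37 and 7.11 CPM. MAEL was at 8.67 and 8.63 CPM in knockdown cells at day 0 against 1.03 and 0.432 CPM in WT, and was lower at day 2 than at day 0 in the knockdown line (log2 fold change over time of -1.01, adjusted p = 0.0152). The mesoderm and streak genes varied. At day 0 the log2 fold change was 0.20 for MESP1 (adjusted p = 0.81) and 0.24 for MESP2 (adjusted p = 0.835), and TBX6 was higher in knockdown cells (1.58, adjusted p = 0.016). EOMES (-2.15, adjusted p = 0.000898) and MIXL1 (-1.82, adjusted p = 0.0204) were lower in knockdown cells at day 0 and did not differ past the test at day 2, and APLNR was at -1.20 at day 0 (adjusted p = 0.211). The median of the primitive streak list was -0.65 at day 0. The 4 WT and knockdown libraries at day 0 already differed in 200 genes called at 4-fold and 10% FDR, of 16891 tested (1.18%).

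**Figure D4:**
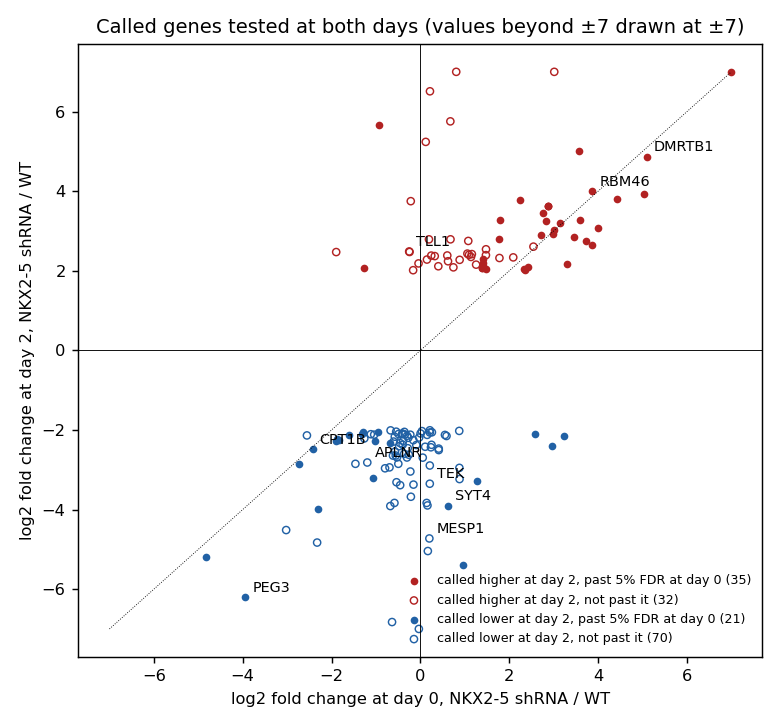
Log2 fold change of NKX2-5 shRNA over WT at day 2 (y axis) against day 0 (x axis) for the called genes tested at both days, with values beyond ±7 drawn at ±7. Filled points passed 5% FDR at day 0, in either direction, and the dotted line marks equal values. Of the red points 35 of 67 are filled, and of the blue points 21 of 91.

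Whether the difference from WT was of another size at day 2 than at day 0 was tested as an interaction. The interaction was called at 4-fold and 10% FDR for 162 of 17345 genes (0.934%). Of these, 37 (0.213%) were more positive and 125 (0.721%) more negative at day 2. They include genes whose day 0 difference shrank by day 2, such as SOX17 (log2 fold change -4.13 at day 0 and 0.05 at day 2). Among the genes called at day 2, 9 of the 80 higher and 33 of the 117 lower were among the 162, in the same direction. The interaction uses the same day 2 libraries by which these genes were called. Their shared direction was therefore built in and is no separate support. MESP1 had an interaction of -4.93 (adjusted p = 8.27e-05), TBX6 of -2.86 (adjusted p = 0.000219) and KDR of -0.99 (adjusted p = 0.000132). For NODAL it was 1.09 (adjusted p = 0.0064), for LEFTY1 1.67 (adjusted p = 0.00476) and for CXCR4 1.35 (adjusted p = 0.00276). Among matrix genes it was -1.62 for COL5A1 (adjusted p = 9.46e-05) and -1.43 for LAMA5 (adjusted p = 0.000965). For APLNR (adjusted p = 0.22), ZEB2 (adjusted p = 0.25) and RBM46 (adjusted p = 0.77) it did not pass.

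The ZEB2 and ZNF503 shRNA lines at day 2 were used to see where NKX2-5 shRNA cells differed from other knockdowns. These comparisons share the NKX2-5 shRNA libraries with the main one and are given side by side. Against ZEB2 shRNA cells 188 of 16521 genes were called (1.14%), and against ZNF503 shRNA cells 657 were called (3.98%). MESP1 was at 7.68 and 12.1 CPM in ZEB2 shRNA cells and at 0.545 and 0.570 CPM in ZNF503 shRNA cells, so that NKX2-5 shRNA cells were below both, by 5.31 (adjusted p = 2.68e-07) and 1.16 (adjusted p = 0.0395) on the log2 scale. APLNR was at 79.7 and 116 CPM in ZEB2 shRNA cells and at 4.41 and 6.46 CPM in ZNF503 shRNA cells, and NKX2-5 shRNA cells lay between them.

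CXCR4 and CER1 differed between the 2 lines in which MESP1 was low, with log2 fold changes of NKX2-5 shRNA over ZNF503 shRNA of 5.55 (adjusted p = 1.36e-12) and 2.45 (adjusted p = 6.24e-11). CXCR4 was at 3.03 and 2.90 CPM in ZNF503 shRNA cells against 135 and 145 CPM in NKX2-5 shRNA cells, and CER1 at 620 and 738 CPM against 3765 and 3640 CPM. The germline genes MAEL (0 and 0 counts in ZEB2 shRNA, 3 and 0 in ZNF503 shRNA) and DMRTB1 (8 and 4, 9 and 0 counts) were near 0 in both other lines. PEG3, in contrast, was also low in the other knockdowns, at 1.06 and 0.960 CPM in ZEB2 shRNA and 1.45 and 0.760 CPM in ZNF503 shRNA cells, against 11 and 11.5 CPM in WT. TEK was at 0.143 and 0.278 CPM in ZEB2 shRNA cells, and did not differ past the test between that line and NKX2-5 shRNA cells (log2 fold change of -0.38 ± 0.61, adjusted p = 0.70).

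**Figure D5:**
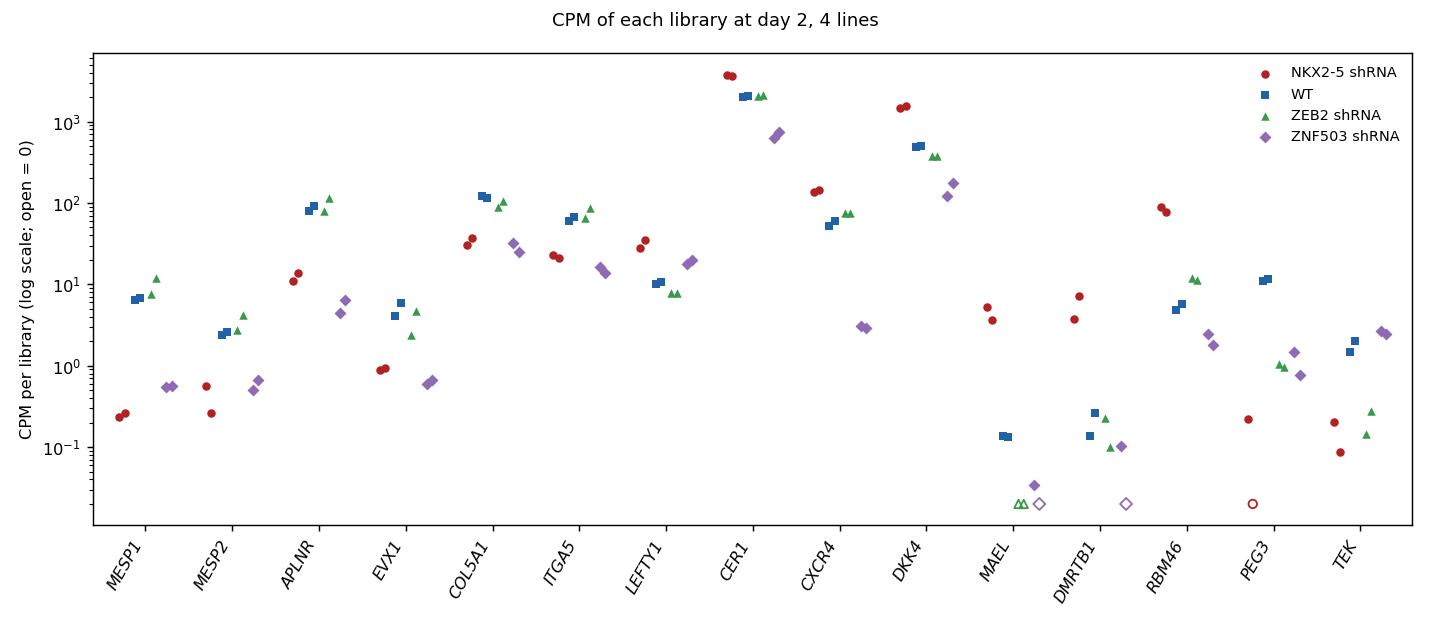
CPM of each library at day 2 (log axis) in NKX2-5 shRNA, WT, ZEB2 shRNA and ZNF503 shRNA cells, 2 libraries each, with open symbols at the base for values of 0. MESP1 and APLNR were low in NKX2-5 and ZNF503 shRNA cells, MAEL, DMRTB1 and RBM46 were highest in NKX2-5 shRNA cells, and PEG3 was highest in WT.

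Fold changes were also summarized by chromosome arm. Over 41 arms with at least 50 genes tested, the median log2 fold change minus that of all genes lay between -0.20 on 22q (392 genes) and 0.13 on 9p (169 genes). The value of 22q was -0.112 without NKX2-5 shRNA replicate 1. After correction for GC content and length these values were -0.01 and 0.06.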

How the data were processed

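RNA was sequenced from TruSeq stranded total RNA libraries. Per the labels, the authors aligned paired-end reads to hg19 with TopHat2 2.0.14 and Bowtie2 2.2.1.0 and used SAMtools 0.1.19.0, and they deposited raw read counts per RefSeq accession, with no normalization. Per the study's methods, 1 best hit was kept for each read and reads in RefSeq gene regions were counted with RSeQC, so reads that fit several copies equally cannot be assigned with certainty. For each symbol the accession with the largest total was kept, and 40285 of 41627 accessions (96.8%) had a symbol. The 4 lines at day 2 (8 libraries) were fitted together with edgeR 4.0.16 (R 4.3.3), with TMM factors, filterByExpr, the quasi-likelihood test and p-values adjusted by Benjamini-Hochberg across every gene that passed the filter. CPM are counts per 1000000 of the library total after TMM scaling. Calls needed a 4-fold change at 10% FDR, the threshold of the study's methods for day 2, which was applied here to day 0 and the interaction as well, and single genes were read at 5% FDR. The interaction was fitted over the 16 libraries of days 0 and 2. Day 6 was used only for NKX2-5, and the day 10 libraries were not used.

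Named genes were NKX2-5, cell type markers, up to 15 largest rises and falls among called genes without overlap and with a mean of at least 1 CPM in the higher group, and in each of 22 lists the called members and up to 3 highest and lowest past 5% FDR. The members and lists were chosen with earlier results of these data known. Other genes given with values, such as NODAL, KDR, WNT3, LEF1, COL6A1, NOTCH2, TBX6, GDF3, APCDD1, HSPG2, CDH1, TLL1 and CPT1B, were chosen after their values were seen. Alternatives were no TMM factors, DESeq2 1.42.0, an exact test, other filters and sets of libraries, a replicate block, each library left out, and a correction for GC content and length. The scripts were tested on simulated data. Intervals and limits for low counts cover counting error only.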

Additional observations from a re-analysis of the deposited data

Results flagged for a closer look

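These results are given because the difference from WT was not the same at day 2 as at day 0, by edgeR's quasi-likelihood test of the interaction, given here as log2 values. Over all genes, 162 passed at 4-fold and 10% FDR. Among named genes the interaction was positive for the endoderm genes CER1 (2.39), SOX17 (4.14) and FOXA2 (2.51). All 3 were lower than WT at day 0, SOX17 with 0 and 2 counts in knockdown cells and 22 and 8 in WT.

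The interaction was negative for MESP1 (-4.93), MESP2 (-2.69), SLITRK6 (-5.22), SYT4 (-4.52), IL12RB2 (-3.46), LRRTM1 (-3.21), TEK (-3.54), KRTAP12-1 (-3.82), SLFN13 (-2.35), SNAI2 (-2.05) and FABP7 (-2.15). It was also negative for WNT3A (-8.29) and DAZL (-6.63), whose values depend on the prior count, since WNT3A had 0 counts in both WT libraries at day 0 and DAZL had 0 counts in both knockdown libraries at day 2.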

How the results depend on the processing

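The count of 197 called genes lay between 153 (DESeq2) and 250 (16 libraries of days 0 and 2) under the alternatives other than a mean of at least 1 CPM, which left 72 called, 35 higher and 37 lower. With single libraries left out it ranged from 192 to 244. The count of 4403 at 5% FDR ranged from 2181 to 3695 with single libraries left out. Of the genes called, 36 of 80 higher and 46 of 117 lower were called in all 4 of these fits. The correction for GC content and length and the list values under the alternatives were chosen after seeing the data. With this correction the arm values became -0.00954 for 22q and 0.0604 for 9p.

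Samples with the same replicate number correlated by 0.0183 to 0.176 in their deviations from the group means, so the numbers were not taken to pair the samples. A fit with a replicate block called 200 genes, and 5434 at 5% FDR. The block gave 148 genes for the interaction, 193 against ZEB2 shRNA cells and 658 against ZNF503 shRNA cells.

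Of 123 named genes tested, 75 kept their direction and side of 5% FDR under every alternative, 36 lost 5% FDR under some and 7 changed sign under some. None of these 7 had passed 5% FDR. Without TMM factors the log2 fold change was -0.0207 for LHX1, -0.12 for NANOG, -0.0767 for SOX2, -0.075 for SOX17 and -0.0639 for SOX1. NANOG was at -0.0052 in the exact test and -0.00509 with the 4 libraries alone, and SOX2 at -0.0421 with the GC and length correction. With single libraries left out the range was -0.0119 to 0.22 for LHX1, -0.00677 to 0.023 for NANOG, -0.0612 to 0.19 for SOX2, -0.14 to 0.22 for SOX17, -0.30 to 0.42 for SOX1, -2.57 to 0.38 for MYH6 and -1.20 to 5.06 for GATA3. The cause of these shifts was not tested. Depth limits the low genes, for which 3 counts were worth up to 0.205 CPM before TMM scaling.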
